A study of Macaca fascicularis with 6 samples.

Results

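The *COL1A1*-positive cells of pre-transplant cyiPS-Cart were examined, that is, the cells of a cartilage organoid that hold reads of a type I collagen gene before the organoid is transplanted. Members were selected on *COL1A1* reads alone, as every cell of this sample with a *COL1A1* count above 0, which gave 928 of 3527 cells, against 2599 *COL1A1*-zero cells of the same sample. The deposited matrices of the whole series hold 7007 cells, counted without repeats. pre-transplant cyiPS-Cart was grown from 1 cynomolgus monkey iPS cell line that carries an EGFP reporter gene, in a medium with TGF-β1, GDF5 and BMP2 at 10 ng/mL each. The cells were read by TAS-Seq, a single-cell RNA method on BD Rhapsody beads, in 1 library together with the undifferentiated cells of the line (cyiPSC, 2500 cells), the pooled samples being told apart by hashtags. For comparison, the same split was made in 3 tissues taken 4 months after surgery from wild-type monkeys 3 to 4 years old. These were organoids recovered from chondral defects (post-transplant cyiPS-Cart, labelled wild type like the recipient although the organoids come from the EGFP line), undamaged joint cartilage (cyAC) and the fibrous tissue of defects left empty (cyFT). Each of them was deposited as a subset of 320 cells drawn by the authors. They came from other libraries than the pre-transplant cells, with post-transplant cyiPS-Cart in its own library and cyAC and cyFT together in another. Every condition is 1 sample, so no test was possible. All differences between classes are between cells of 1 sample. Intervals are 95%, take cells or reads as independent, and cover no spread between samples. Those on reads can be too narrow, since the counts are reads and not molecules.

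Type I collagen is the main fibre of bone, tendon, ligament, skin and scar. It is built from the products of *COL1A1* and *COL1A2*, often together with types III, V, XII and XIV. Hyaline cartilage is instead built on type II collagen, with types IX and XI, the proteoglycan aggrecan and small adaptor proteins such as the matrilins. In cartilage that forms in culture, type I collagen is usually read as a sign of perichondrial, fibrous or dedifferentiated cells.

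The split separated a fibrous matrix programme from a cartilage matrix programme within the organoid. Beside *COL1A1*, positive cells held more mRNA of *COL1A2*, of the fibril-associated and network collagens *COL12A1*, *COL14A1*, *COL6A3* and *COL8A1*, and of the matrix glycoprotein gene *ECM1*. They held less of *MATN3*, *SNORC*, *COL2A1*, *COL9A1* and *ACAN*. Most of the cells were mixed, however. Of the 928 positive cells, 674 also had reads of *COL2A1*, 98.2% had reads of *ACAN* against 2.36% of cyiPSC, and the chondrocyte transcription factor gene *SOX9* was at 637 CPM (counts scaled to 1000000 in each cell, here the mean over cells) against 504 in *COL1A1*-zero cells.

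The *COL1A1* values themselves are a description of the rule. In positive cells *COL1A1* ranged from 1699 to 89468 CPM with a median of 23666, so that the gene took 2.37% of the reads of the median cell and 8.95% of those of the highest. A gap lay below the lowest positive cell, because counts taken for diffused background were set to 0 by the authors in some highly counted genes. The same gap was present in 75 of 13950 genes, in which the lowest count above 0 was 10 or more. A *COL1A1*-zero cell is therefore a cell below that background limit, not one shown to hold no transcript. The 50 positive cells with the fewest *COL1A1* reads (277 to 373) had a mean of 4330 CPM of *COL1A2*, 158 of *ECM1*, 16611 of *COL2A1* and 304 of *MATN3*. Over all 2599 *COL1A1*-zero cells, which have no order by *COL1A1*, these means were 1462, 17.2, 36048 and 1168 CPM.

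**Figure D1:**
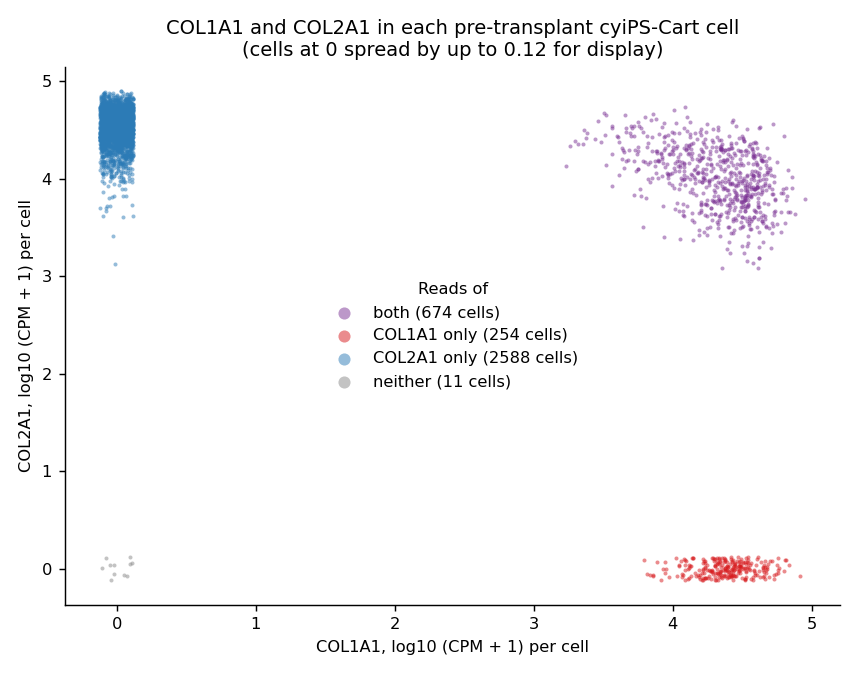
Each point is 1 pre-transplant cyiPS-Cart cell, with *COL1A1* on the x axis and *COL2A1* on the y axis, both as log10 of CPM + 1, and cells at 0 spread by up to 0.12 so that they can be seen. The 674 cells with reads of both collagens form a cloud at the upper right, the 254 cells with *COL1A1* and no *COL2A1* lie along the bottom, and the 2588 cells with *COL2A1* and no *COL1A1* stand at the left.

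*COL2A1* had the same kind of gap as *COL1A1*, with 145 reads as its lowest count above 0 in pre-transplant cells. A cell without *COL2A1* reads is therefore one below that limit, here and in all classes by *COL2A1*. Among the positive cells, 254 had no *COL2A1* reads, a share of 27.4% (24.5 to 30.4, exact Clopper-Pearson). Among the *COL1A1*-zero cells the share was 0.423% (0.211 to 0.756), or 11 of 2599 cells, and in cyiPSC, which should lack the gene, 0.4% of cells had *COL2A1* reads. With every cell thinned to 30967 reads, and 57 positive and 296 zero cells left out as too shallow, the shares without *COL2A1* were 25.7% and 0.0868%. Of the 871 positive cells kept, 224 had no *COL2A1* reads before thinning either. With that lower limit, thinning could hardly bring a cell to 0, and the shares moved because cells were left out. The part of depth in these shares was thus not tested. Depth did differ between the classes. Positive cells had a median of 68610.5 reads and 4122 genes, and zero cells 56195 reads and 3662 genes. The cells with both collagens were the deepest, at a median of 72110.5 reads, while the cells with *COL1A1* only had 53338, close to the 56355.5 reads of those with *COL2A1* only. Mitochondrial genes took a median of 6.23% of reads in positive cells, 7.24% in those with *COL1A1* only, and 5.25% in zero cells. Of the 52 named genes called below at 2-fold, 51 stayed past it with cells thinned to equal depth and 50 with mitochondrial genes left out of CPM. With the stricter filter given below, on genes per cell and mitochondrial share, 48 stayed. Beyond these alternatives, the part of depth and of the mitochondrial share in the differences was not tested. A doublet caller marked 1 of the 3527 cells and is not taken to have worked. Its median score was 0.104 in cells with both collagens, 0.0596 with *COL1A1* only and 0.0918 in zero cells, and whether some cells with both collagens are pairs of cells was not tested.

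Across the transcriptome the difference was narrow. Genes were compared where 1 of the 2 classes reached a mean of 50 CPM and 25% of cells with reads, which left 3357 genes besides *COL1A1*. A gene is called higher or lower when the mean per-cell CPM + 1 differed by at least 2-fold between the classes, a rule of size and not a test. By this rule 59 genes (1.76%) were higher and 60 genes (1.79%) lower in the positive cells, around a median log2 ratio of 0.08 over all 3357. The reads behind each value were many. Over the 147 named genes compared, the exact interval of the ratio of summed reads reached at most 0.10 to either side on the log2 scale. It takes every read as independent and does not cover the spread between cells, and no interval was made for the ratio of mean per-cell CPM.

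**Figure D2:**
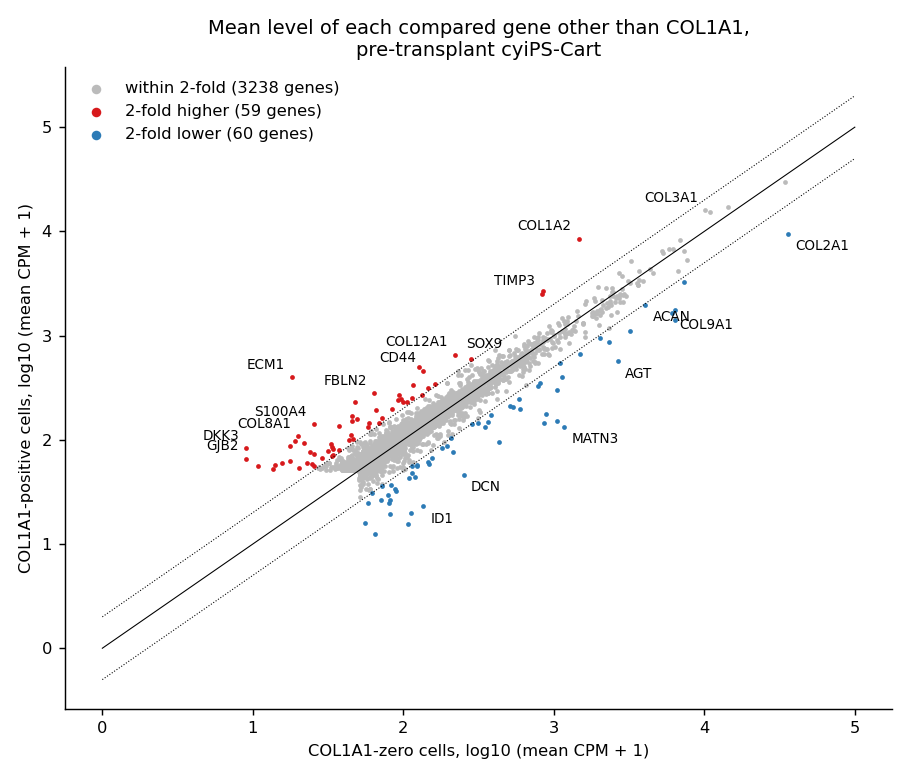
Each point is 1 of the 3357 compared genes, with its mean in *COL1A1*-zero cells on the x axis and in *COL1A1*-positive cells on the y axis, as log10 of mean CPM + 1, and dotted lines at 2-fold. The 59 higher genes lie above the upper line, led by *ECM1*, and the 60 lower genes below the lower line, *MATN3* and *COL2A1* among them.

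Type I collagen has a second chain, encoded by *COL1A2*, which the choice of cells did not use. Its level in positive cells ranged from 0 to 34198 CPM with a median of 8049, and in zero cells from 0 to 28538 with a median of 109. The ranges overlapped, but the lower quartile of the positive cells, 854 CPM, stood above the upper quartile of the zero cells, 648 CPM. The mean was 8475 against 1462 CPM, a log2 ratio of 2.53. The low values of *COL1A2* were not set to 0 in these files, and *COL1A1*-zero cyiPSC had *COL1A2* reads in 98.7% of cells at a mean of 109 CPM, so a share of cells with *COL1A2* reads says little here. At a limit of 1000 CPM, chosen after the values were seen and passed by 1.12% of cyiPSC, 693 positive cells (74.7%) and 591 zero cells (22.7%) were at or above it.

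At these limits the 2 chains therefore did not mark the same cells throughout. The limits are unlike, with the background step for *COL1A1* and 1000 CPM for *COL1A2*, and the part of this in the mismatch was not tested. The 591 *COL1A1*-zero cells with *COL1A2* at or above 1000 CPM had means of 29805 CPM of *COL2A1*, 840 of *MATN3* and 34.3 of *ECM1*. In the other 2008 *COL1A1*-zero cells these means were 37886, 1264 and 12.2 CPM. The 235 positive cells with less *COL1A2* than this had 14631 CPM of *COL2A1*, 228 of *MATN3* and 217 of *ECM1*, and 10.6% of them were without *COL2A1*. The 693 cells above both limits were farthest from the zero cells, with 7812 CPM of *COL2A1*, 100.2 of *MATN3* and 461 of *ECM1*, and 33.0% were without *COL2A1*.

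Of the fibrillar and fibrous collagens, 9 of 12 listed genes were measured and compared. In the positive cells 5 of them were higher and 0 lower, with a median log2 ratio of 1.27. Beside *COL1A2* these were *COL8A1* (107 against 19.1 CPM), *COL12A1* (656 against 221 CPM), *COL6A3* (331 against 114 CPM) and *COL14A1* (80.7 against 32.9 CPM). Types XII and XIV sit on the surface of collagen I fibrils, and type VI forms beaded filaments around cells. The partner collagens of type I fibrils differed less. *COL3A1*, at a median of 15115 CPM in positive and 9265 in zero cells, had a log2 ratio of the means of 0.66, and *COL5A1* and *COL5A2* had 0.39 each. *COL16A1*, a fibril-associated collagen gene, was on the other side, at 671 against 909 CPM (-0.44). All of these were abundant in *COL1A1*-zero cells too, where *COL3A1* had a mean of 10108 CPM.

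The cartilage matrix list gave the opposite picture. Of 16 measured genes, 14 were compared, 0 were higher and 9 lower, with a median log2 ratio over the 16 of -1.02, and their summed level was 23770 CPM in positive against 65084 in zero cells. *MATN3*, which encodes the cartilage adaptor matrilin-3, had a median of 0 CPM in positive cells, where its highest value was 3458, and a median of 1053 and a highest value of 6505 in zero cells. The mean was 133 against 1168 CPM, a log2 ratio of -3.13, and 26.2% of positive cells had reads against 92.7% of zero cells and 4.84% of cyiPSC. *SNORC*, a small transmembrane proteoglycan gene of chondrocytes, was at 150 against 1045 CPM (-2.79). *CHAD*, the gene of the collagen-binding leucine-rich protein chondroadherin, was at 93.3 against 434 CPM (-2.21). *CNMD*, the gene of the antiangiogenic protein chondromodulin, was at 297 against 1045 CPM (-1.81). Of the main constituents, *COL2A1* had a median of 7061 CPM in positive and 35409 in zero cells, with means of 9539 and 36048 CPM (-1.92). *COL9A1* was at 1651 against 6080 CPM (-1.88) and *COL9A2* at 939 against 2026 CPM (-1.11). *ACAN*, which encodes aggrecan, had a median of 1816 CPM in positive and 3803 in zero cells, with means of 1970 and 4050 (-1.04). *COL11A1* (-0.53) and *HAPLN1*, the gene of the protein that links aggrecan to hyaluronan (-0.40), did not reach 2-fold. Within *COL2A1*-positive cells the median of the list was -0.75. The calls of *ACAN* (-0.90), *COL9A2* (-0.82) and *EPYC* (-0.68) were lost there.

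The chondrogenic transcription factor genes did not follow the matrix genes. Of 6 measured, 3 were compared and 0 passed 2-fold in either direction. *SOX9*, which drives *COL2A1* and *ACAN* in chondrocytes, had a median of 430 CPM in positive and 271 in zero cells. Its partner *SOX5* was at 61.3 against 57.4 CPM, and *TRPS1* at 270 against 313 CPM. The EGFP reporter, a check of origin, had reads in 100% of both classes, at 2401 and 2471 CPM.

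*ECM1*, which encodes extracellular matrix protein 1, had the highest ratio of all compared genes. It ranged from 0 to 2921 CPM with a median of 240 in positive cells and from 0 to 1037 with a median of 0 in zero cells. The means were 399 against 17.2 CPM, a log2 ratio of 4.46. Reads were present in 77.2% of positive cells (74.3 to 79.8) and 18.9% of zero cells (17.4 to 20.4). In cyiPSC, at a median of 143075 reads, 28.2% of cells had reads at a mean of 7.95 CPM. Thinned, the shares were 73.5% and 13.9%. *DKK3*, a secreted protein gene of the Dickkopf family, followed with 82.3 against 8.03 CPM (3.21), and *GJB2*, the gene of the gap junction protein connexin 26, with 65.0 against 7.98 CPM (2.88). Both were genes of a minority, with reads in 37.0% and 29.3% of positive cells and 7.46% and 4.42% of zero cells, and *DKK3* had reads in 23.4% of cyiPSC.

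The fibroblast and connective tissue list was divided. Of 21 measured genes 18 were compared, 6 were higher and 1 lower, with a median log2 ratio of 0.67. The summed level of the list was 60481 CPM in positive against 56385 in zero cells. The calcium-binding protein gene *S100A4* was at 141 against 24.5 CPM (2.48), and *FBLN2*, which encodes the matrix protein fibulin-2, at 278 against 62.9 CPM (2.13). *PDGFRB*, the platelet-derived growth factor receptor β gene, was at 58.4 against 14.5 CPM (1.93). The hyaluronan receptor gene *CD44* had a median of 366 CPM in positive and 20.4 in zero cells, with reads in 94.8% and 55.9% of cells (48.2% of cyiPSC). *ASPN*, which encodes a small leucine-rich proteoglycan, was at 156 against 48.0 CPM (1.68). The surface glycoprotein gene *THY1* was at 159 against 71.0 CPM (1.16), the 1 gene of the 52 named genes called whose direction turned in an alternative, with a log2 ratio of -0.16 among the 320 pre-transplant cells of the smaller deposited matrix. Its call was also lost within *COL2A1*-positive cells (0.90) and without cycling cells (0.86).

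The lower member was *DCN*. It encodes decorin, another small proteoglycan, and is usually counted with fibroblasts. In positive cells 24.6% had reads, at a mean of 44.9 CPM, and in zero cells 72.0%, at 251 CPM (-2.46). The more general mesenchymal genes were high in both classes and did not reach 2-fold, with *VIM* at 5200 against 3276 CPM, *FN1* at 15471 against 10894 CPM, *POSTN* at 2910 against 1975 CPM and *LUM* at 550 against 779 CPM.

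Of the tendon and perichondrium list 18 genes were measured and 6 compared. *DKK3* and *SFRP2* were higher, 0 were lower, and the median over the 18 was 0.54. The summed level of the list went the other way, at 5116 CPM in positive against 7638 in zero cells. *SFRP2*, a secreted WNT modulator gene, was at 55.9 against 13.0 CPM, but had reads in 92.8% of cyiPSC at 166 CPM. The tendon marker *TNMD* was at 4.72 against 2.78 CPM. Of the bone list, 1 of 11 measured genes was compared. *RUNX2*, *SP7*, *BGLAP* and *IBSP*, which mark osteoblasts, all had means below 4 CPM in both classes. *SPP1*, which encodes osteopontin, had a mean of 728 against 408 CPM, but 51 positive cells at or above 1000 CPM held 94.5% of its summed level in that class, and the median cell had 9.31 CPM. Its log2 ratio turned from 0.83 to -0.90 in the smaller matrix and to -0.72 with positive cells taken from 1000 *COL1A1* reads. Of the hypertrophic list, 6 genes were measured and 3 compared, with 0 past 2-fold, and *COL10A1* was at 0.141 against 0.285 CPM.

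Other matrix groups had few calls. Of 16 measured collagen-processing genes, 13 were compared and 1, *LOXL1*, a lysyl oxidase gene, was higher (227 against 98.1 CPM, 1.20, but 0.99 in the smaller matrix and 0.96 within *COL2A1*-positive cells). *SERPINH1*, the collagen chaperone gene, was at 3190 against 3214 CPM. Of 13 matrix protease and inhibitor genes, 6 were compared and *TIMP3*, a metalloproteinase inhibitor gene, was higher (2513 against 834 CPM, 1.59). Of 9 superficial zone genes, 4 were compared and 0 passed, with a median of -0.73. *PRG4*, the lubricin gene, was below the filter at 9.27% of positive cells and 20.2% of zero cells, and 48 positive (5.17%) and 382 zero cells (14.7%) held at least 1000 CPM of it.

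Of the growth factor lists, the BMP list had 4 of 11 measured genes compared, with 0 higher and 2 lower and a median of -0.53. *ID1*, a direct BMP target, was at 22.0 against 134 CPM (-2.56), with reads in 10.2% of positive cells and 25.9% of zero cells. The median was 0 in both classes, and 98 zero cells (3.77%) at or above 1000 CPM held 42.3% of its summed level in that class. *ID4* was at 23.6 against 79.8 CPM (-1.72, but -0.80 in the 320 cells of the smaller matrix). Of 12 TGF-β genes, 9 were compared, 0 were higher and 2 lower, among them the decoy receptor gene *BAMBI* (66.5 against 154 CPM). *TGFB1* itself was at 503 against 364 CPM (0.46), the receptor gene *TGFBR2* at 91.3 against 54.2 CPM (0.74) and the inhibitor gene *SMAD7* at 74.3 against 52.0 CPM (0.51). Of 16 WNT and FGF genes, 3 were compared and *FRZB*, a secreted WNT antagonist gene of cartilage, was lower (196 against 598 CPM, -1.61). The contractile and YAP target list had 13 genes measured and 9 compared, with 1 higher and 3 lower. The smooth muscle actin gene *ACTA2* was higher (192 against 64.9 CPM, 1.55), with 42 positive cells holding 49.8% of its summed level. The matricellular genes *CCN1* (1107 against 3192 CPM, -1.53) and *CCN2* (132 against 350 CPM, -1.40) and the adaptor gene *AMOTL2* (103 against 208 CPM) were lower. The call of *AMOTL2* was lost in 8 alternatives, with a log2 ratio of -0.76 within *COL2A1*-positive cells.

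Lists for cell state and for other cell types showed few calls. Cycling cells, those with reads of at least 3 of 16 cell cycle genes, were 43.0% (39.8 to 46.3) of positive and 36.1% (34.3 to 38.0) of zero cells. They were 46.4% (42.6 to 50.3) of the cells with both collagens and 33.9% (28.1 to 40.0) of the shallower ones with *COL1A1* only, and, thinned to 30967 reads, 33.3% (30.2 to 36.5) of positive, 27.4% (25.6 to 29.3) of zero, 34.2% of both-collagen and 30.8% (24.8 to 37.3) of *COL1A1*-only cells. Of the list, 0 of the 3 cycle genes compared passed 2-fold. None of the 8 stress response genes compared (11 measured) and none of the 7 hypoxia and glycolysis genes compared (13 measured) passed. Of 9 early response genes measured, 6 were compared and *FOS* (352 against 814 CPM) and *JUN* (139.5 against 283 CPM) were lower. The call of *JUN*, at -1.01, was lost in several alternatives, with -0.92 in the smaller matrix and -0.94 without cycling cells. Early response genes respond to enzymatic digestion, which all cells had gone through, and their part in the other differences was not tested. The lists for pluripotent, endothelial, immune, epithelial, skeletal muscle, smooth muscle and adipocyte cells had 0 genes compared. The defining markers *NANOG*, *PECAM1* and *PTPRC* were below 1 CPM in both classes. Summed over a list, the positive cells had means of 15.0 CPM of 8 pluripotent, 1.60 of 7 endothelial, 12.1 of 8 immune, 31.2 of 5 epithelial, 24.1 of 8 skeletal muscle, 71.3 of 7 smooth muscle and 10.5 CPM of 5 adipocyte markers, and the zero cells 16.2, 0.923, 9.37, 32.0, 26.8, 86.4 and 9.52 CPM. Of 11 neural markers measured, 2 were compared and 0 passed. Of 9 neural crest and glial markers, *S100B*, which chondrocytes also express, was compared and was lower (18.5 against 80.9 CPM).

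The remaining genes with the largest ratios belong to none of these lists. Among the 12 highest were *TFPI*, the gene of an inhibitor of coagulation (55.6 against 9.80 CPM), the adhesion protein gene *FLRT3* (95.7 against 17.9 CPM), the synaptic calcium sensor gene *SYT1* (85.5 against 16.7 CPM), the pyridoxal phosphatase gene *PDXP* (229 against 46.9 CPM) and the serotonin receptor gene *HTR2A* (92.8 against 21.0 CPM). *SYT1* and *PDXP* had reads in 79.8% and 81.8% of cyiPSC, more often than in either class. Among the 12 lowest were *PAPPA2*, a protease gene of the insulin-like growth factor system (14.7 against 106 CPM), the retinol carrier gene *RBP4* (143 against 858 CPM), *ITM2A*, a membrane protein gene of cartilage development (18.7 against 111 CPM), *ZNF385D* (11.3 against 64.0 CPM), the iron transporter gene *SLC11A2* (177 against 880 CPM), the angiotensin precursor gene *AGT* (565 against 2670 CPM) and *DLK1*, a membrane regulator gene of progenitor differentiation (1413 against 6360 CPM). These included very abundant genes, since *DLK1* and *AGT* had reads in 96.6% and 98.0% of zero cells.

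Next, the 928 cells were divided by *COL2A1*, to ask whether the profile came from the cells that lack it. Within cells that had *COL2A1* reads, 674 positive cells were compared with 2588 zero cells over 3287 genes. There, 39 genes (1.19%) were higher and 44 (1.34%) lower, of which 38 and 44 were also called over all cells, and the 59 and 60 genes called over all cells all had the same sign. *ECM1* was at 285 against 16.6 CPM (4.03) and *MATN3* at 181 against 1173 CPM (-2.69). *SFRP2* no longer passed 2-fold (26.0 against 13.0 CPM, 0.95). The count of higher genes was thus lower by more than 1.5 times when cells without *COL2A1* were left out, while the leading genes remained.

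The cells with *COL1A1* and no *COL2A1*, which did not enter that comparison, lay further out on most of its genes. Their mean was above that of the cells with both collagens for 33 of the 39 higher genes and below it for 42 of the 43 lower genes other than *COL2A1*, where 63.6% of all compared genes had a mean above. *ECM1* went from 16.6 CPM with *COL2A1* only to 285 with both and 702 with *COL1A1* only. *DKK3* went from 7.58 to 55.0 and 155 CPM over the same classes, *CD44* from 134 to 399 and 620 CPM, and *TIMP3* from 829 to 2151 and 3473 CPM. *MATN3* went from 1173 to 181 and 3.56 CPM, the last near the 3.34 CPM of cyiPSC. *ACAN* kept a much higher level, with 4062, 2179 and 1417 CPM, and *SOX9* went the other way, with 504, 611 and 706 CPM. The cartilage matrix list summed without *COL2A1*, which defines the classes, stood at 29109, 16544 and 8094 CPM. *COL3A1* was an exception to the order, highest in the cells with both collagens at 16536 CPM, against 14610 with *COL1A1* only and 10098 with *COL2A1* only.

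**Figure D3:**
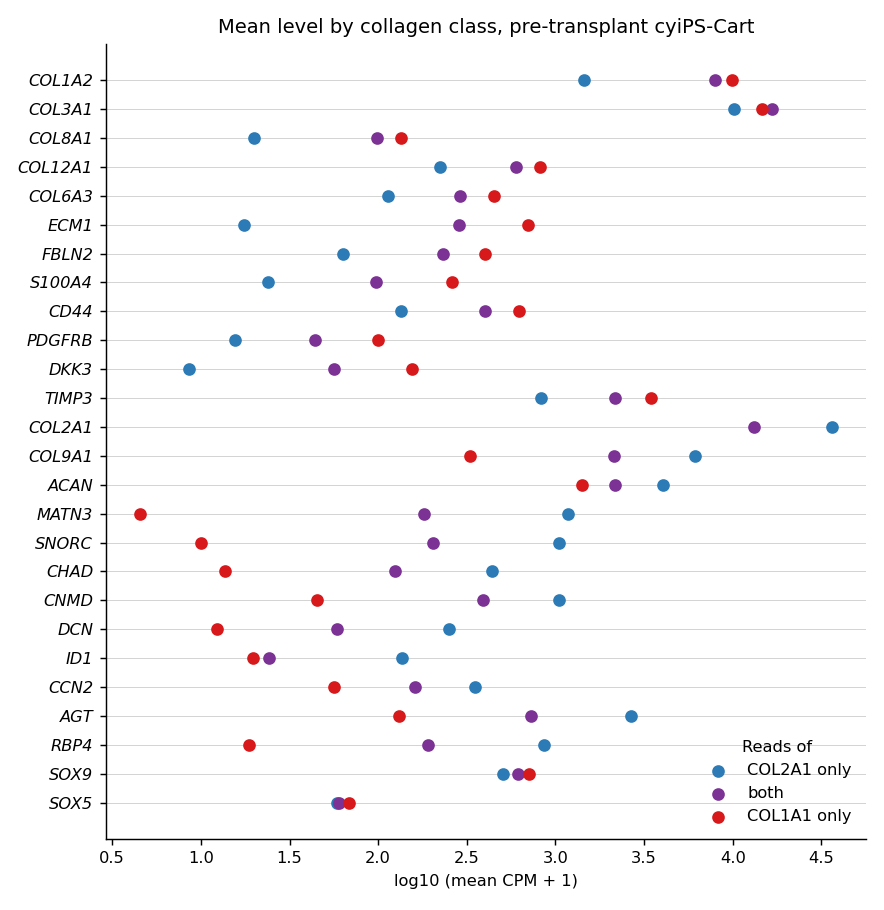
Points give the mean of each gene in 3 classes of pre-transplant cyiPS-Cart cells, as log10 of mean CPM + 1, with reads of *COL2A1* only (2588 cells), both collagens (674) or *COL1A1* only (254). From *COL1A2* to *TIMP3* the class with both collagens lies between the others except for *COL3A1*, from *COL9A1* to *RBP4* it lies between them in the reverse order, and *SOX9* and *SOX5* rank the classes like the fibrous genes but over a small range. *COL2A1* is not drawn where it defines the class.

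Among the positive cells the amount of *COL1A1* also varied, and the cells were ranked by it, with *COL1A1* left out of each cell's total for this step, and divided into quartiles of 232 cells. The median *COL1A1* level of the quartiles was 9354, 19569, 29130 and 43626 CPM. *COL12A1* went from 361 to 617, 775 and 952.7 CPM over them and *COL1A2* from 5367 to 7996, 9838 and 11721 CPM. *ECM1* reached 415 CPM in the second quartile from 208 in the first and then changed little, with 507 and 516 CPM. *MATN3* went from 349 to 97.0, 59.2 and 32.8 CPM and *SNORC* from 347 to 116, 84.9 and 61.4 CPM, so that both were lower in every further quartile. *COL2A1* (16168, 8244, 6978 and 7584 CPM) and *ACAN* (2309, 1870, 1867 and 2035 CPM) had their highest mean in the first quartile. The share of cells without *COL2A1* did not follow the *COL1A1* level, with 15.9% (11.5 to 21.3), 35.3% (29.2 to 41.9), 34.9% (28.8 to 41.4) and 23.3% (18.0 to 29.3). Median reads were 77370, 60739.5, 65928.5 and 69133.5 per cell.

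**Figure D4:**
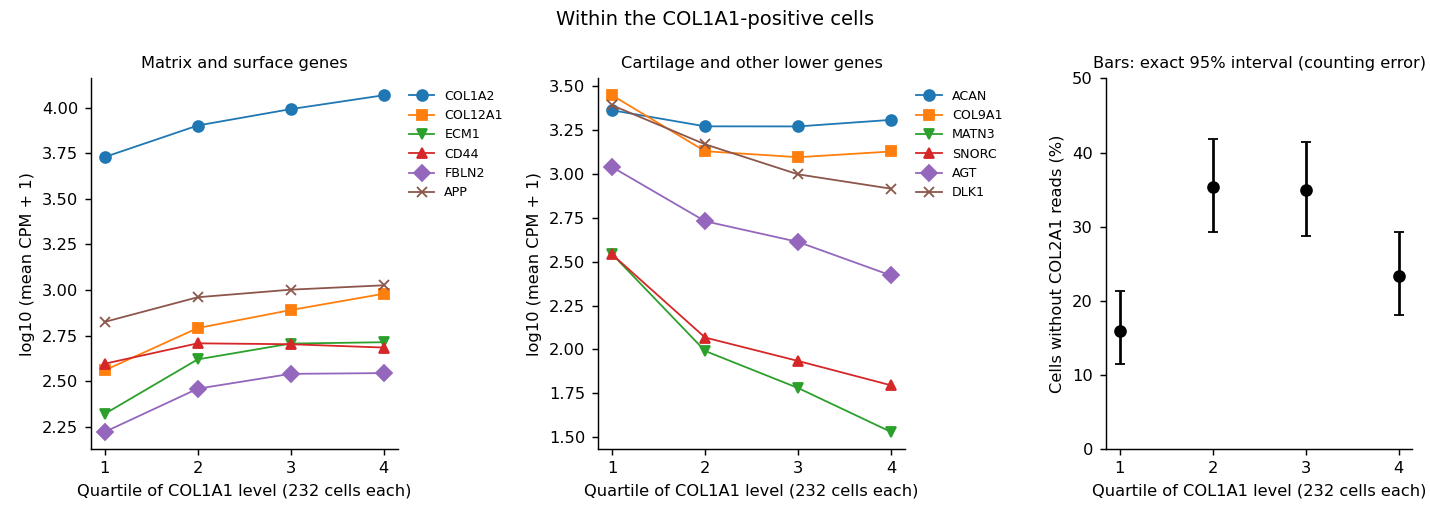
The x axes give quartiles of the *COL1A1* level in the 928 positive cells, 232 cells each, and the y axes the mean of each gene as log10 of mean CPM + 1 in the first pair of panels and the percentage of cells without *COL2A1* reads, with exact intervals, in the last. *COL12A1* and *COL1A2* are higher and *MATN3*, *SNORC*, *AGT* and *DLK1* lower in each further quartile, while the share without *COL2A1* is highest in the middle quartiles at 35.3% and 34.9%.

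As a description over the 928 cells, which share 1 library and differ in depth, the rank correlation (Spearman) of each of 3307 genes with *COL1A1* lay between -0.42 and 0.40 with a median of -0.01. That with reads per cell was -0.09. The pattern most like that of *COL1A1* was that of *COL12A1* (0.40), followed by *COL1A2* (0.32), the elastic fibre protein gene *MFAP4* (0.32), the amyloid precursor gene *APP* (0.32) and *ECM1* (0.30). Among the most opposed were *MATN3* (-0.42), *SNORC* (-0.37), *AGT* (-0.34) and *DLK1* (-0.32). *MFAP4* and *APP* differed by less than 2-fold between positive and zero cells, with log2 ratios of -0.23 and 0.40. *DKK3*, the gene with the next highest ratio after *ECM1*, did not follow the amount of *COL1A1*, with 80.7, 119, 89.0 and 48.2 CPM over the quartiles.

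Clustering of the positive cells alone gave 4 clusters, which differed in cartilage genes and in the cell cycle. They are given by number and leading genes, which are a description of how the clusters were formed. Cluster 0 (333 cells) was led by *UCMA*, the gene of a secreted protein of cartilage, at 3873 CPM against 597 in the other positive cells, with *RBP4*, *FRZB*, *RGS4* and *DUSP2*. It had 3.90% of cells without *COL2A1* (2.09 to 6.58). Cluster 1 (287 cells) was led by *SPP1* (2159 against 87.4 CPM), with *RCSD1*, *SLC36A2*, *SLC37A2* and *INHBA*, and was the shallowest at a median of 45127 reads. *SPP1* had reads in 50.5% of its cells and 55.4% of the other positive cells, and 51 of the 928 cells held most of the gene's level, as given above. The other leading genes of cluster 1 had log2 ratios to the remaining positive cells of at most 1.02. Cluster 2 (248 cells) was led by *ALOX5AP*, *CASP1*, *TMEM119*, *TSPAN15* and *SFRP2*, and had 61.7% of cells without *COL2A1* (55.3 to 67.8), *MATN3* at 2.22 CPM and *ECM1* at 784 CPM. Cluster 3 (60 cells) was led by the mitotic genes *TOP2A*, *PRC1*, *CDK1*, *CEP55* and *PBK*, and all of its cells counted as cycling.

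*COL1A1* itself, which was left out of the clustering, and *COL3A1* differed by less than 2-fold between the clusters. Their mean levels lay between 20292 and 29567 CPM and between 15146 and 16761 CPM. *ECM1*, by contrast, was at 158, 348, 784 and 390 CPM and *MATN3* at 268, 70.1, 2.22 and 217 CPM in clusters 0 to 3. *ACAN* also stayed within 2-fold, at 2402, 1932, 1526 and 1590 CPM. Of the leading genes of cluster 2, the inflammasome protease gene *CASP1* was at 111 CPM in the cluster, 19.5 CPM in the other positive cells and 1.22 CPM in *COL1A1*-zero cells, and *ALOX5AP*, the gene of a protein of leukotriene synthesis, was at 104, 6.08 and 0.415 CPM. Both are known from immune cells. The 8 immune markers measured summed to means of 10.7, 13.1, 11.5 and 17.4 CPM in clusters 0 to 3, between 0 and 172 CPM in the cells of cluster 2, 0 of whose cells had reads of 3 of them, and *PTPRC*, which defines leukocytes, was at 0 in all 4 clusters.

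The same split was then made in the other samples, where the cells had not been used for the rule. The lowest count that remained above 0 was 277 reads before transplantation and 497 after it, while cyAC had 76 and cyFT 81, so the limit behind a positive cell differed between samples and their shares are not on 1 scale. post-transplant cyiPS-Cart had 54 positive cells of 320 (16.9%, 12.9 to 21.4), of which 13.0% (5.37 to 24.9) were without *COL2A1*, against 0.376% of its zero cells. cyFT had 203 positive cells (63.4%, 57.9 to 68.7), of which 83.7% (77.9 to 88.5) were without *COL2A1*, against 28.2% of its zero cells. cyAC had 19 positive cells, of which 84.2% were without *COL2A1*, and means over so few cells are uncertain. Positive cells were of about the same depth as zero cells in post-transplant cyiPS-Cart (medians 80595.5 and 79730 reads) and shallower in cyFT (23049 and 43272).

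In post-transplant cyiPS-Cart 3027 genes were compared, of which 184 (6.08%) were higher and 180 (5.95%) lower in positive cells. Of the 59 genes higher before transplantation, 33 passed the filter there, 22 were again higher and 0 lower. Of the 60 lower genes, 49 passed, 23 were again lower and 0 higher. In cyFT 3514 genes were compared, of which 277 (7.88%) were higher and 342 (9.73%) lower. Of the 59 genes, 42 passed there, 28 were higher and 2 lower (*TIMP3* and *ITGA6*), and of the 60, 49 passed, 32 were lower and 2 higher (*FOS* and *ID1*). In cyAC, with its 19 cells, 3409 genes were compared and 671 (19.7%) were higher and 568 (16.7%) lower. Of the 59 genes, 38 passed there, 29 were higher and 2 lower, and of the 60, 45 passed, 36 were lower and 3 higher. The samples share no control cells, but differ in depth, in number of cells and, except for cyAC and cyFT, in library. Whether their ratios differ was not tested.

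Several single genes had the same direction in pre- and post-transplant cyiPS-Cart and cyFT. *ECM1* was at 91.5 against 8.60 CPM in post-transplant cyiPS-Cart (3.27) and 745 against 339 CPM in cyFT (1.14). *COL8A1* had ratios of 2.08 and 4.33, *FBLN2* 2.88 and 1.57, *S100A4* 1.75 and 1.29, and *DKK3* 1.31 and 2.90. *MATN3* was at 12.5 against 393 CPM (-4.87) in post-transplant cyiPS-Cart and 14.9 against 192 CPM (-3.60) in cyFT, and *SNORC* had -2.65 and -3.68. *COL1A2*, at 8475 against 1462 CPM before transplantation, was at 49552 against 22022 CPM after it (1.17) and at 37314 against 629 CPM in cyFT (5.89). Zero cells of post-transplant cyiPS-Cart therefore had a higher mean of *COL1A2*, in another library, than positive cells had before transplantation. *DCN* also changed level between samples, at 2336 against 6774 CPM (-1.54) after transplantation and 2581 against 4832 CPM in cyFT (-0.90). These samples are of 3 libraries, and the parts of library and tissue in such levels cannot be told apart.

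Other genes were closer together, changed direction or were scarce in these samples. *ACAN* was at 4088 against 5841 CPM (-0.51) in post-transplant cyiPS-Cart and at 3713 against 3098 CPM (0.26) in cyFT, while its pre-transplant ratio of -1.04 was -0.90 within *COL2A1*-positive cells and -0.98 with a stricter cell filter. *AGT* was at 211 against 193 CPM (0.13) after transplantation, where its level in zero cells was far below the 2670 CPM of before, in another library. *CD44* did not pass the filter in post-transplant cyiPS-Cart and was at 378 against 624 CPM in cyFT (-0.72). *GJB2*, *HTR2A* and *SYT1*, among the 12 highest before transplantation, were below 10 CPM in both classes of both other samples.

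**Figure D5:**
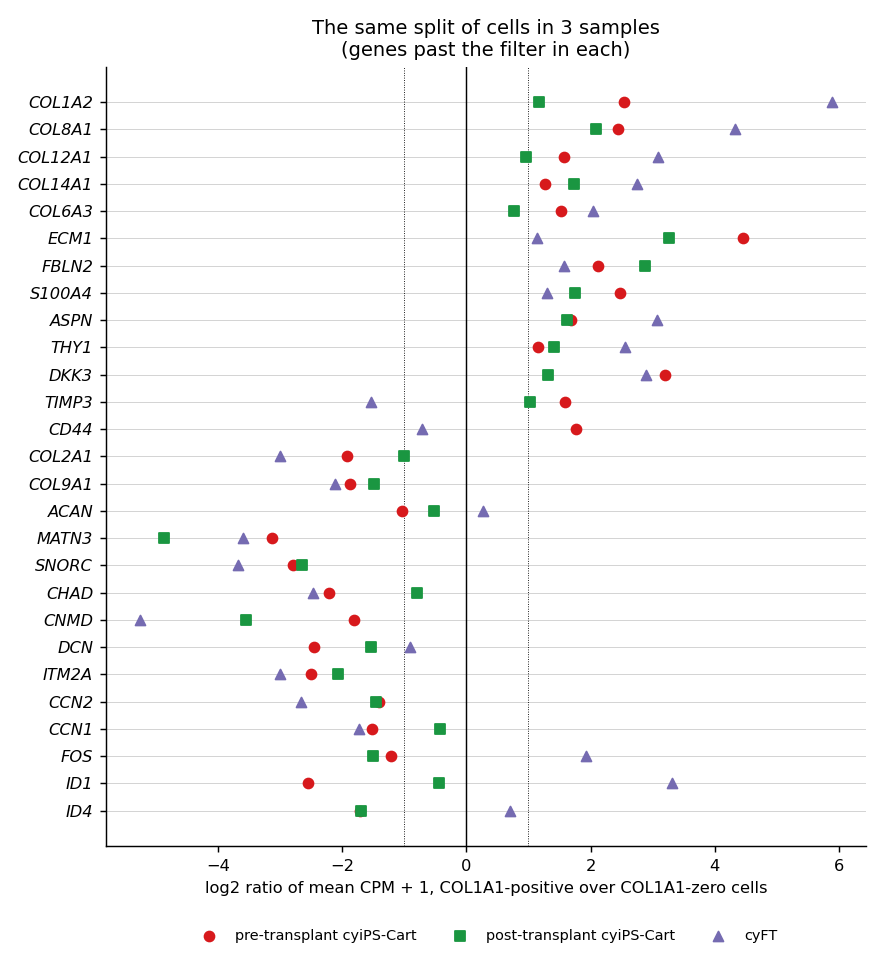
The x axis gives the log2 ratio of mean CPM + 1 of *COL1A1*-positive over *COL1A1*-zero cells, with 1 symbol for each of cyFT and cyiPS-Cart before and after transplantation, shown where the gene passed the filter, and dotted lines at 2-fold. The collagens, *ECM1*, *FBLN2*, *S100A4*, *ASPN*, *THY1* and *DKK3* lie to the right in all 3 samples and *COL2A1*, *COL9A1*, *MATN3*, *SNORC* and *CNMD* to the left, while *TIMP3*, *FOS* and *ID1* change sides in cyFT.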

How the data were processed

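The authors deposited counts of reads per gene and cell in 2 matrices, of 13950 genes and 6027 cells and of 14020 genes and 1280 cells. Per the labels and methods, cDNA reads were trimmed with cutadapt 3.4 and assigned to cynomolgus Ensembl transcripts with Bowtie2 2.4.2, samples were separated by hashtag, components of a gene's count distribution taken for diffused background were set to 0 in highly counted genes (log2 maximum over 8, and further limits on the components), and cells with a high mitochondrial share were removed. No counting of molecular identifiers is described. Cells were taken to samples by the prefixes of their names, read through the labels and the authors' code. A RefSeq table of another assembly held 94.9% of the symbols, so no coordinates or sequences are given.

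Each cell's deposited counts were scaled to CPM over all listed genes, averaged over the cells of a class, and compared as log2 ratios of mean CPM + 1, after a filter of 50 CPM and 25% of cells in either class. Shares have exact Clopper-Pearson and ratios of summed reads exact conditional 95% intervals. Clusters were made with Seurat 5.3.0 (scale factor 1000000, 2000 features, 30 components, resolution 0.5) in R 4.3.3, and doublets were scored with scrublet in scanpy 1.11.5, with no cell removed. The split was first run on simulated counts with planted changes. These counts had no added spread between cells and no background step, so the run checked the calculation only. Named genes are those of 27 lists (pathways, matrix groups, markers), the 12 with the largest ratio in each direction, 5 in each direction within *COL2A1*-positive cells, 5 with the highest and 5 with the lowest rank correlation with *COL1A1*, and 5 leading genes per cluster. The cells, lists and rules were chosen with earlier results of these data known. Other symbols of the lists were not analysed here, and some genes that the rule names are not reported here. edgeR 4.0.16 gave TMM factors for the summed deposited counts as 1 alternative, and no count test was run. The 300 pre-transplant cell names in both matrices were counted once in the series total.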

Additional observations from a re-analysis of the deposited data

Results flagged for a closer look

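Of the genes higher or lower by 2-fold in *COL1A1*-positive cells of pre-transplant cyiPS-Cart, 4 were past 2-fold the other way in cyFT, and 0 in post-transplant cyiPS-Cart. *FOS*, an early response transcription factor gene, had a log2 ratio of 1.93 in cyFT (3253 against 851 CPM) and -1.21 in pre-transplant cells. *ID1* had 3.31 in cyFT (972 against 96.9 CPM) and -2.56 in pre-transplant cells. *TIMP3* had -1.54 in cyFT (766 against 2222 CPM) and 1.59 in pre-transplant cells. *ITGA6*, a laminin receptor subunit gene named here after its values were seen, had -1.01 in cyFT (112 against 227 CPM) and 1.98 in pre-transplant cells. In cyAC, with 19 positive cells, 29 higher and 36 lower genes were again so, and 5 were past 2-fold the other way, with log2 ratios of 1.35 for *ID1*, 1.22 for *ID4*, 1.43 for *JUN*, -1.63 for *TIMP3* and -1.96 for *S100A16*, a calcium-binding protein gene named after its values were seen. *ID1* and *TIMP3* were thus opposite in both. With 1 sample of each, these differences were not tested.

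In cyiPSC, which shared the library and should lack type I collagen, 44 of 2500 cells had *COL1A1* reads (1.76%, 1.28 to 2.36). They held a median of 310809 reads against 142162 in the other cyiPSC. Their means were 6375 CPM of *COL1A1*, 6807 of *COL3A1* (40.5 in the others) and 3255 of *VIM* (257). Reads of *NANOG* were present in 61.4% of them against 54.7%, and of *ACAN* in 27.3% against 1.91%. Their origin was not tested.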

How the results depend on the processing

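With 1 sample per condition, the limits are those of a single culture. The intervals of summed reads are narrow but leave out the spread between cells, and the spread between cultures is unknown. The share of *COL1A1*-positive cells, 26.3%, was 17.2% when only cells with at least 1000 *COL1A1* reads counted, 23.6% with a stricter cell filter (500 genes, mitochondrial share within 3 median absolute deviations), 24.1% in the 320 cells of the smaller matrix and 24.2% without cycling cells. The share of these without *COL2A1*, 27.4%, was 21.8% with the stricter filter and 31.8% without cycling cells. The counts of higher and lower genes, 59 and 60, were 157 and 91 with a filter of 10 CPM and 10% of cells, and 290 and 136 with no filter but 5 cells with reads. Within *COL2A1*-positive cells 39 genes were higher. Under the other alternatives (cell filters, thinning, depth limits, other denominators, TMM, pseudocounts of 0.1 and 10) both counts stayed within 1.5 times. Of 52 named genes called, all kept their direction except *THY1*, at -0.16 in the smaller matrix, but 11 fell below 2-fold in at least 1 alternative, among them *ACAN*, *COL9A2*, *EPYC*, *AMOTL2*, *JUN*, *ID4*, *LOXL1*, *SFRP2* and *THY1*. Past 2-fold stayed 42 within *COL2A1*-positive cells, 45 in the smaller matrix and 48 with the stricter filter. TMM gave 51 higher and 71 lower genes. No paired analysis was possible because each condition is 1 sample.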

Other observations

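Some listed genes had large ratios below the filter on level. *VCAM1*, an adhesion molecule gene, had reads in 16.8% of *COL1A1*-positive and 2.77% of *COL1A1*-zero cells, at 22.8 against 1.94 CPM. *MMP13*, a collagenase gene, had reads in 12.7% and 4.81% of cells, at 21.5 against 2.84 CPM. *LGALS1*, which encodes galectin-1, was at 42.8 against 8.17 CPM, the cathepsin K gene *CTSK* at 48.2 against 14.4 CPM and the myosin light chain gene *MYL9* at 48.9 against 14.6 CPM. In each of these 5 genes the cells with *COL1A1* and no *COL2A1* had a higher mean than those with both collagens or with *COL2A1* only, with 40.9 CPM of *VCAM1*, 40.8 of *MMP13*, 92.1 of *LGALS1*, 73.3 of *CTSK* and 96.1 of *MYL9*. In cyiPSC *MYL9* was at 259 CPM and *VCAM1* at 1.26 CPM.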
